A study of Mus musculus with 11 samples.

Results

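The genes described here are 35 genes of the endoplasmic reticulum (ER) folding machinery and of the unfolded protein response (UPR), taken by symbol from a table of 30681 genes counted in mouse hippocampus. All 35 were found and all 35 had enough counts to be tested. RNA was taken from 1 hippocampus per library and its polyadenylated part was sequenced, in mice aged 6 months. There were 6 libraries labelled as a conditional knockout (cKO) of Dclk3, a doublecortin-like kinase gene, and 5 labelled wild type (WT). A conditional knockout removes a gene in cells that express a recombinase. The sources used here do not name the recombinase line, the deleted part of the gene or the strain. Whether each library is a separate animal is not said in the labels, and p-values therefore measure only the spread among these libraries, which may be technical.

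Proteins that enter the secretory pathway are threaded through the translocon into the ER, where chaperones and disulfide isomerases fold them and where those that fail are sent back to the cytosol for degradation (ERAD). When unfolded protein builds up, the sensors IRE1 (gene Ern1), PERK (Eif2ak3) and ATF6 start the UPR. IRE1 splices Xbp1 mRNA, and XBP1 and ATF6 then raise chaperone and ERAD genes. PERK slows translation and favours ATF4, which raises genes of amino acid supply and, with CHOP (Ddit3), a feedback arm. Neurons use this system for the large load of receptors and channels they make, and astrocytes for secreted and membrane proteins.

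The ER stress response element (ERSE) is the promoter sequence bound by ATF6 and XBP1 with NF-Y. Its letters, CCAAT and CCACG with 9 bases of any kind between them, were searched on both strands in windows of 300 bases, from 250 before to 50 after each transcription start in RefSeq (build GRCm38.p6, the same assembly as mm10). A window was found for 31 of the 35 genes, and Atf6, Manf, Hyou1 and Derl1 were not searched. Exact matches lay in 8 of them (25.8%), and in 37 of 27025 genes with a window overall (0.137%). Many of these genes are textbook UPR targets, so this is a description of the list and not a finding about the mice. The 9 matches are shown because 7 of the 8 genes that carry one had their highest level in 1 library, described below. In that library the highest level was also reached by 13 of the 23 genes with a window and no exact match. Of all 35 genes 22 (62.9%) were highest there. Of the 6 genes that stood out most there, Hspa5 and Creld2 carry an exact match, Sdf2l1, Pdia4 and Xbp1 do not, and Manf had no window. They are written 5′ to 3′ in the direction of the motif, with the fixed letters in capitals.
Hspa5: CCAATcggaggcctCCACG
Hsp90b1, farther from the start: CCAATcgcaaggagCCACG
Hsp90b1, nearer to the start: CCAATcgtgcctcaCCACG
Canx: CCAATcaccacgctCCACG
Calr: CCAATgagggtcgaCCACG
Pdia6: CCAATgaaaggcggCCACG
Dnajc3: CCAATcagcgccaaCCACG
Creld2: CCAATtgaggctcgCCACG
Syvn1: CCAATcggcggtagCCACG

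The match in Hspa5 lies at chr2:34772025-34772043, from 65 to 47 bases before the RefSeq start. The GENCODE M21 annotation starts Hspa5 farther upstream, at 34771970, so the match lies within an annotated exon there. That of Canx lies at chr11:50325800-50325818, from 145 to 127 bases before its RefSeq start, and that of Creld2 at chr15:88819520-88819538, from 126 to 108 bases before its own. With 1 mismatch allowed among the 10 fixed letters, 14 of 31 genes (45.2%) had a match, against 1.72% of all genes with a window. Pdia4, Pdia3, Herpud1, Sel1l, Derl2 and Ddit3 join the list at that setting. Sdf2l1 and Xbp1 had none at either setting, which says only that these letters are not in this window.

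The shorter ERSE-II, ATTGG and CCACG with 1 base of any kind between them, was in Herpud1 and Dnajb11, 2 of 31 genes (6.45%), against 0.0444% of all. The letters TGATGNAA, the core of the C/EBP-ATF element read by ATF4, were in Asns, Chac1, Trib3 and Herpud1, 4 of 31 (12.9%), against 4.51% of all. The longer form of that element, TGATGNAAT, was in 0 of 31, against 1.08% of all. The UPRE letters TGACGTGG were in 0 of 31, against 0.714% of all. The Canx and Herpud1 sequences before the start are shown whole. Canx came nearest to the test threshold below, and Herpud1 holds both an ERSE-II and the core letters TGATGNAA. Capitals mark the matches as they lie on the gene's strand.
Canx, chr11:50325674-50325923, minus strand: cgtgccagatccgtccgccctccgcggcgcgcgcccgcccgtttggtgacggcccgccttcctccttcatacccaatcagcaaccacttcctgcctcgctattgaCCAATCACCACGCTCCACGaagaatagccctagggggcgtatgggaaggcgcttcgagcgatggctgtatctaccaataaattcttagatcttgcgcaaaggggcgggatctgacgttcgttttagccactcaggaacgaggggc
Herpud1, chr8:94386179-94386428, plus strand: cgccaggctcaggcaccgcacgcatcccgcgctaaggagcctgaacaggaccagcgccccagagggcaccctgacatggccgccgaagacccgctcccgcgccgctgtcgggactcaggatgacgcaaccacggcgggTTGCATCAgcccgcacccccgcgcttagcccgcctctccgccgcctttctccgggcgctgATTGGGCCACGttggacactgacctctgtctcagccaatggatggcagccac

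**Figure D1:**
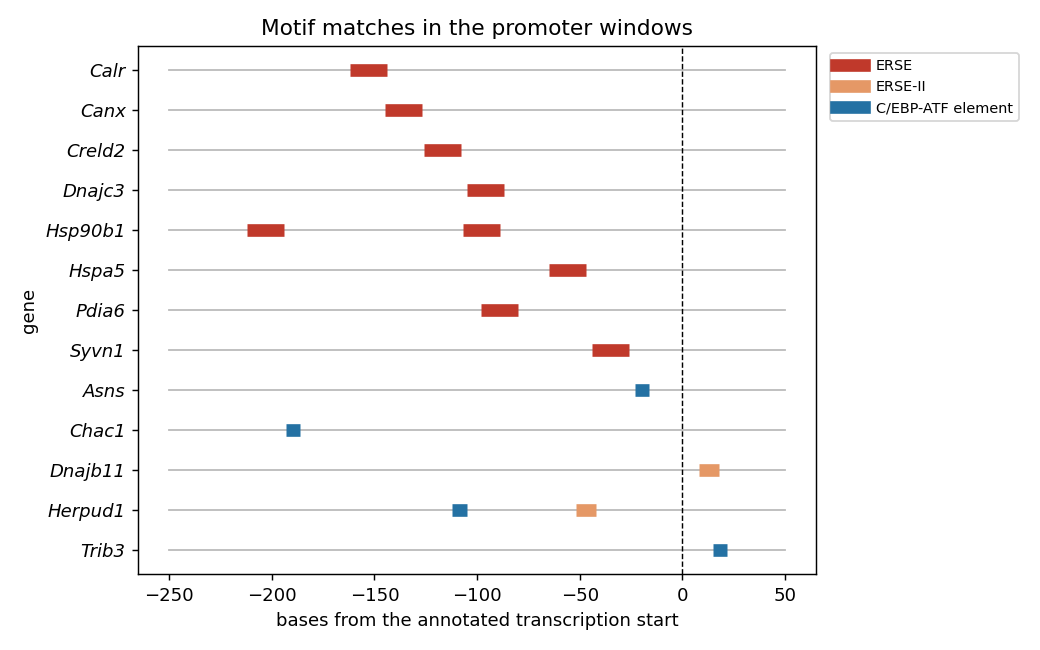
Positions of motif matches in the windows of the 13 genes that hold one, with bases from the annotated transcription start on the x axis and genes on the y axis. The ERSE matches all lie before the RefSeq start, between 212 and 26 bases from it. The C/EBP-ATF element in the key stands for the core letters TGATGNAA only.

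Libraries held between 24001828 and 35674490 counts. Dclk3 itself had 15.4 to 25.7 CPM (the usual unit of counts relative to the library's total, here TMM-scaled) in the libraries labelled cKO and 19.6 to 28.1 CPM in WT, overlapping ranges (edgeR, log2 fold change -0.15 ± 0.12 SE, adjusted p = 0.727), so directions below are those of the labels. Xist and 4 Y-linked genes gave a male pattern in all 6 libraries labelled cKO and in WT replicates 2 and 5, and a female pattern in the other 3 WT libraries. Genotype and sex are therefore partly confounded, and values from the 8 male libraries are given where they bear on a result. All 10 markers of hippocampal principal cells were present in every library. Markers that moved with the labels were those of astrocytes, 7 of 7 with higher values and a summed level of 8015 to 10042 CPM against 6438 to 7630 CPM in WT, and of microglia, 9 of 9 with higher values and 706 to 1120 CPM against 714 to 818 CPM. Markers of meningeal fibroblasts had 2 of 9 with higher values and 5 lower at an unadjusted p under 0.05, with a median log2 fold change of -0.56 and a summed level of 103 to 193 CPM against 128 to 198 CPM. Of 8 thalamic markers 3 were lower at that p. All 12 immediate early genes were lower at that p (beside 5.35% of all genes), with a median log2 fold change of -0.59. Their summed level was 312 to 414 CPM against 353 to 670 CPM. In the higher direction 3 astrocyte and 4 microglia markers passed that p (beside 3.84% of all genes). Of 9 neuron markers 8 had a higher value, and 0 passed that p in either direction. In whole tissue a change in the share of a cell type cannot be told apart from a change in RNA per cell. The part of these shifts in the results below was not tested.

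Replicate 6 labelled cKO stood apart for these genes. It was the highest of the 11 libraries for 22 of the 35 genes (62.9%), and for 12.3% of all 16587 genes tested, a share that WT replicate 5 also reached (12.7%). The next library by this count, WT replicate 4, was highest for 4 of the 35. Its mean over the 35 genes of log2 CPM, each centred on the gene's own mean, was 0.26, and the other 10 libraries lay between -0.09 and 0.03. Results are therefore given with and without it.

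**Figure D2:**
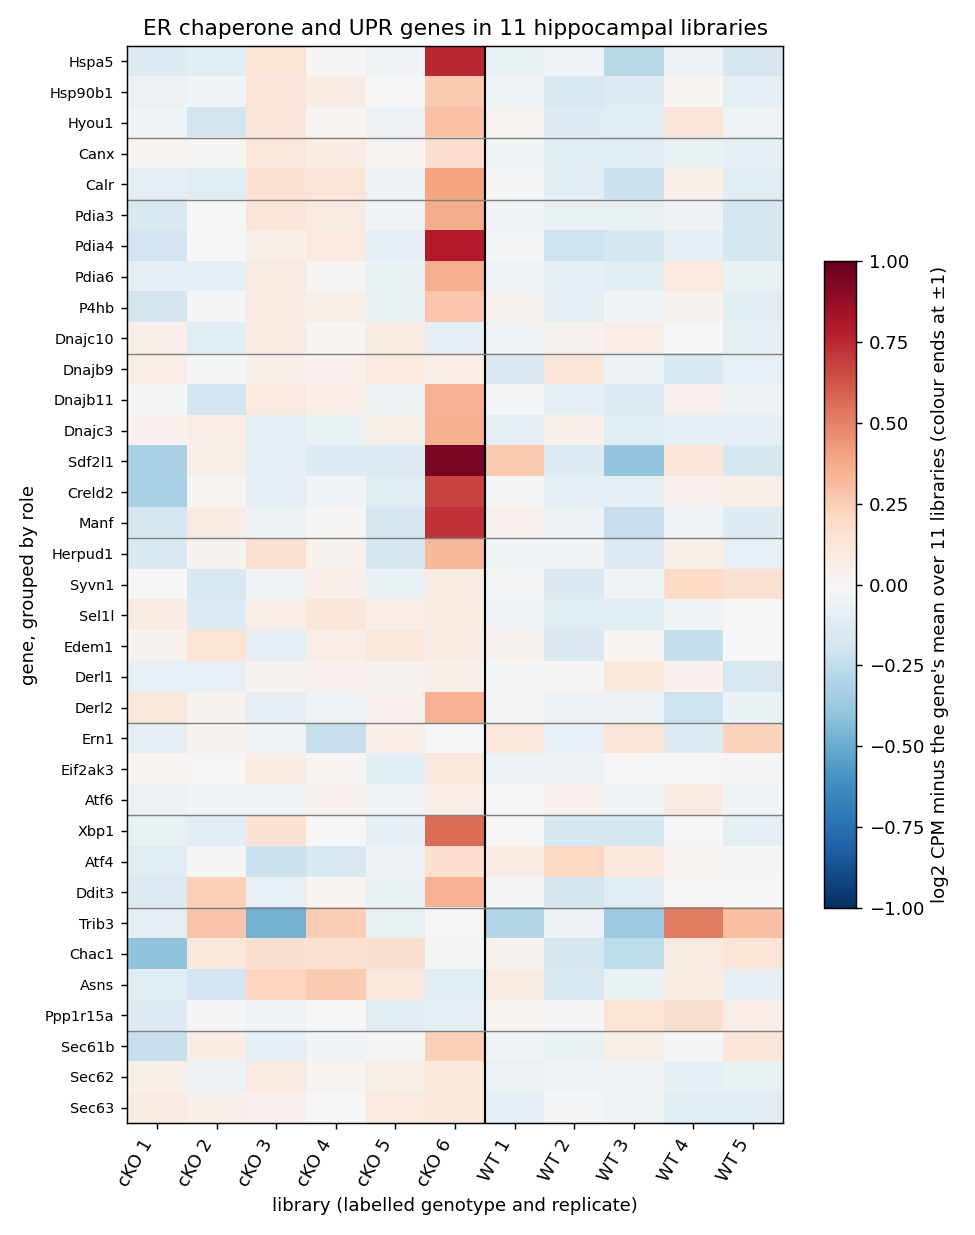
Heat map of the 35 genes (rows, grouped by role) in the 11 libraries (columns), coloured by log2 CPM minus the gene's mean over all libraries. Replicate 6 labelled cKO has the deepest red over most of the chaperone rows.

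The levels of the genes, compared per kilobase of exon in WT (CPM per kilobase), were led by Calr, a lectin chaperone that holds glycoproteins and calcium, at 120 ± 8.93 (SD, n = 5). It was followed by Hsp90b1, the ER form of HSP90, at 74.8 ± 3.84, Pdia3, a disulfide isomerase that works with the lectins, at 69.0 ± 2.65, Canx, the membrane-bound lectin calnexin, at 68.1 ± 1.38, and Hspa5, the ER HSP70 known as BiP, at 62.8 ± 4.22 (SD, n = 5). Hsp90b1, Pdia3, Canx and Hspa5 followed each other with overlapping mean ± SD ranges between neighbours, whereas that of Calr lay above them all. Atf4 had 44.4 ± 2.68 and Xbp1 24.9 ± 1.54. The sensors were low, with Atf6 at 9.04 ± 0.31, Eif2ak3 at 4.23 ± 0.081 and Ern1 at 1.69 ± 0.18. Trib3, a pseudokinase that CHOP and ATF4 raise under stress, was the lowest at 0.18 ± 0.055, from 9 to 18 reads per WT library.

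Between the labelled genotypes 28 of the 35 genes had a higher mean in the libraries labelled cKO, against 50% of all genes tested. The median log2 fold change was 0.10, beside 0.00 over all genes (-7.86e-05 unrounded). None passed edgeR's quasi-likelihood test with Benjamini-Hochberg adjustment over all genes, which called 0 of 16587 genes (0%), and the smallest adjusted p among the 35 was 0.349. Without adjustment, 9 of the 35 genes had p under 0.05 (beside 9.19% of all genes), 7 of them higher (beside 3.84%) and 2 lower (beside 5.35%). Without replicate 6 labelled cKO, 25 of 35 had a higher mean, the median was 0.03, and 3 were higher and 2 lower at that p (3.54% and 5.22% of all genes). Many of the genes were high together in that library, so these counts are not counts of independent genes. Leaving out WT replicate 3 in place of it gave a median of 0.07, with 3 higher genes and 1 lower at that p (2.51% and 4.33% of all genes).

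The lectin chaperone Canx had the smallest p. It had 328, 315, 312, 324 and 318 CPM in WT replicates 1 to 5, and from 341 to 381 CPM with a median of 350.5 CPM in the libraries labelled cKO. Every library labelled cKO lay above every WT library, as in 0.404% of all genes tested. The means were 356 ± 15.7 CPM and 319 ± 6.46 CPM (SD, n = 6 and 5). The log2 fold change of Canx came to 0.16 ± 0.04 (SE; edgeR, adjusted p = 0.349). DESeq2 called it (adjusted p = 0.0192), as it called 0.375% of the genes it tested. Without replicate 6 labelled cKO the value was 0.13 ± 0.04, and in the 8 male libraries 0.17 (edgeR), and DESeq2 on those male libraries did not call it (adjusted p = 0.993), nor did DESeq2 with a sex term (adjusted p = 0.752). Calr, its soluble partner, had 339, 335, 403, 397, 349 and 477 CPM in replicates 1 to 6 labelled cKO and 314 to 377 CPM in WT. The groups overlapped, and the log2 fold change was 0.15 ± 0.08 with all libraries and 0.08 ± 0.07 without replicate 6 (SE).

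The translocon gene Sec63 gave the other non-overlapping increase in value. SEC63 is a membrane J-protein that recruits BiP to the channel. It had 87.2, 92.2, 91.3, 87.1 and 86.9 CPM in WT replicates 1 to 5, and 93.4 to 100.6 CPM with a median of 97.7 CPM in the libraries labelled cKO. The lowest library labelled cKO, replicate 4, was close above the highest WT library, replicate 2. The means were 97.6 ± 2.63 CPM and 88.9 ± 2.59 CPM (SD, n = 6 and 5). The log2 difference was 0.13 ± 0.04 (SE; edgeR, adjusted p = 0.394; DESeq2, adjusted p = 0.0465). It was 0.13 in edgeR both without replicate 6 labelled cKO (unadjusted p = 0.0074) and in the male libraries (unadjusted p = 0.051). With a sex term in edgeR the unadjusted p was 0.038. DESeq2 without replicate 6 did not call Sec63 (adjusted p = 0.13). Sec62, which sits beside SEC63 at the channel, had 148 to 156 CPM in WT and 152 to 170 CPM in the libraries labelled cKO, where replicate 2, at 152 CPM, fell among the WT libraries. The difference was 0.10 ± 0.04 on the log2 scale (SE; edgeR, adjusted p = 0.476). The small channel subunit Sec61b showed no such shift, at -0.02 ± 0.08. Exons of Sec62 and Sec63 overlap genes on the other strand over 509 and 173 bases, and the sources used here do not say whether counting used the strand.

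Hspa5 had 276, 280, 238, 277 and 257.5 CPM in WT replicates 1 to 5 and 264, 267, 317, 291, 282 and 487 CPM in replicates 1 to 6 labelled cKO. Only replicate 6 and, by less, replicates 3, 4 and 5 lay above all WT libraries. Its log2 fold change of 0.26 ± 0.15 (SE; edgeR, adjusted p = 0.633) became 0.10 ± 0.06 without replicate 6. Hsp90b1 had 312, 284, 290, 322 and 299 CPM in WT replicates 1 to 5 and 305 to 381 CPM with a median of 326 CPM in the libraries labelled cKO. The ranges overlapped. A log2 fold change of 0.14 ± 0.06 (SE; edgeR, adjusted p = 0.476) became 0.10 ± 0.05 without replicate 6. Hyou1, a large HSP70 relative that serves as a nucleotide exchange factor for BiP, was at 0.06 ± 0.07 and at 0.001 ± 0.061 without replicate 6. Hsp90b1 shares exon bases with 3 other annotated genes.

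Of the 5 disulfide isomerases all had a higher mean and Pdia3 had an unadjusted p under 0.05. Pdia3 had 224, 217, 217, 221 and 203 CPM in WT replicates 1 to 5 and 205.5 to 296 CPM with a median of 236 CPM in the libraries labelled cKO. Replicates 1 and 5 labelled cKO lay among the WT libraries and replicate 6 above all others. On the log2 scale the difference was 0.15 ± 0.07 (SE; edgeR, adjusted p = 0.542), and 0.09 ± 0.05 without replicate 6. Pdia4, which carries an additional thioredoxin domain, had the largest log2 fold change of the 35 genes, 0.28 ± 0.16 (SE; edgeR, adjusted p = 0.616). It had 70.8 CPM in replicate 6 labelled cKO against 35.2 to 43.6 CPM in the other 10 libraries, and 0.11 ± 0.06 remained without that library. Pdia6, P4hb and Dnajc10, a reductase for misfolded substrates, were at 0.08, 0.06 and 0.01.

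**Figure D3:**
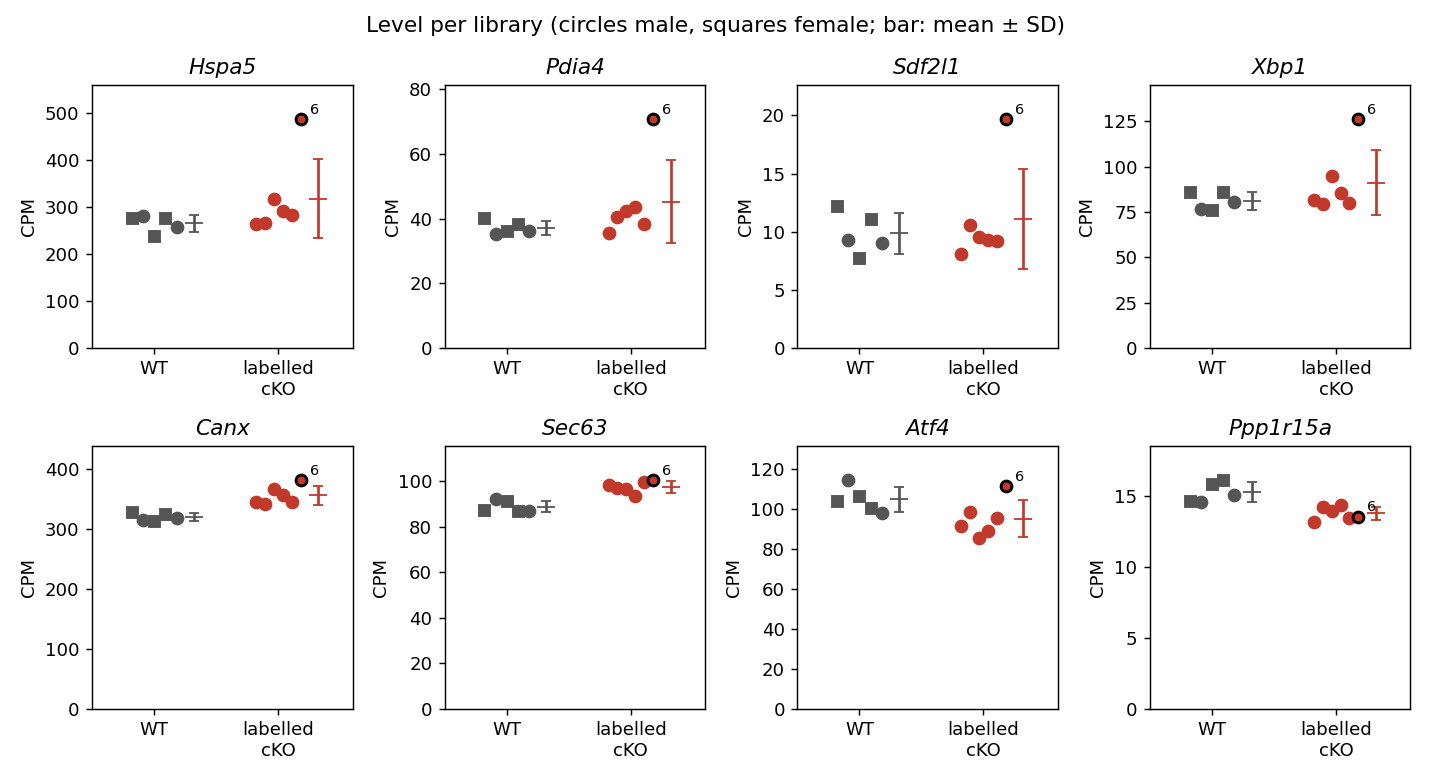
Level in CPM (y axis, from 0) of 8 genes in each WT library and each library labelled cKO (x axis), with circles for male and squares for female libraries and the mean ± SD beside them. Replicate 6 labelled cKO (ringed, marked 6) stands far above the rest for Hspa5, Pdia4, Sdf2l1 and Xbp1, whereas all libraries labelled cKO lie above WT for Canx and Sec63 and below it for Ppp1r15a.

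The co-chaperones and secreted factors showed the widest gap between replicate 6 and the rest. Sdf2l1, a partner of the BiP cycle, had 19.7 CPM there and 7.71 to 12.2 CPM in the other 10 libraries. Manf, a secreted factor held in the ER by BiP, had 69.3 CPM against 35.8 to 44.3 CPM. Creld2, another small secreted UPR product, had 21.5 CPM against 10.7 to 13.9 CPM. The log2 fold changes of 0.17, 0.18 and 0.08 in all libraries were -0.07, 0.02 and -0.08 without it, so 2 of the 3 changed sign. Dnajc3, an inhibitor of PERK and a BiP co-chaperone, had 87.0 CPM in replicate 6 and 62.6 to 71.3 CPM elsewhere, and Dnajb11, a J-protein of BiP, 60.9 CPM against 41.8 to 51.0 CPM. Dnajb9, the J-protein that holds BiP on IRE1, did not share the peak, with 32.6 CPM in replicate 6 and 28.1 to 33.9 CPM in the others. Its log2 fold change was 0.11 ± 0.05 with that library and 0.11 ± 0.06 without it (SE; edgeR, adjusted p = 0.548 with all libraries), and 0.03 in the male libraries.

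ERAD genes were mixed. Sel1l, the scaffold of the HRD1 ubiquitin ligase, had 171, 161, 162, 172 and 175 CPM in WT replicates 1 to 5 and 160 to 191 CPM with a median of 184.6 CPM in the libraries labelled cKO, where replicate 2 was the lowest of all 11. The log2 difference was 0.11 ± 0.05 (SE; edgeR, adjusted p = 0.507), and 0.10 ± 0.05 without replicate 6. Derl2, a derlin of the export channel, had 25.1, 24.4, 24.5, 22.1 and 24.3 CPM in WT replicates 1 to 5 and 23.9 to 32.5 CPM with a median of 26.2 CPM in the libraries labelled cKO, the highest again in replicate 6. For Derl2 the log2 difference was 0.15 ± 0.07 (SE; edgeR, adjusted p = 0.523), and 0.09 ± 0.06 without it. Herpud1, an ER membrane protein of the ligase complex, was also highest there, with 53.6 CPM against 37.8 to 47.6 CPM. Syvn1, the ligase HRD1 itself, Derl1 and Edem1, a mannosidase-like receptor, were at -0.06, 0.00 and 0.12, and none was highest in replicate 6. Derl2 shares 231 exon bases with a gene on the other strand.

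The sensors lay within their spread. Ern1 was at -0.10 ± 0.08, Atf6 at -0.02 ± 0.04 and Eif2ak3 at 0.05 ± 0.05 (log2 ± SE). In replicate 6 Ern1 had 13.2 CPM, in the middle of the other 10 libraries, and Atf6 86.7 CPM, below 1 other library. Eif2ak3 had 28.1 CPM there, the highest of the 11 libraries, against 24.1 to 27.3 CPM in the others. Counts of mRNA do not show whether a sensor is active.

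Of the transcription factors, Xbp1 had 86.1, 76.4, 75.9, 86.1 and 80.5 CPM in WT replicates 1 to 5 and 81.3, 79.3, 94.9, 85.6, 80.05 and 126 CPM in replicates 1 to 6 labelled cKO. Replicate 6 was 1.33-fold above the next highest library. Its log2 difference of 0.17 ± 0.11 (SE; edgeR, adjusted p = 0.672) became 0.06 ± 0.06 without it. The table gives 1 count per gene, so spliced and unspliced Xbp1 mRNA were not separated. Atf4 went the other way. It had 104, 114, 106.5, 100.4 and 98.0 CPM in WT replicates 1 to 5 and 85.2 to 111 CPM with a median of 93.2 CPM in the libraries labelled cKO, with replicate 6 the highest of these. The log2 difference was -0.14 ± 0.06 (SE; edgeR, adjusted p = 0.509) with replicate 6 and -0.19 ± 0.05 (adjusted p = 0.427) without it, and -0.16 in the male libraries. Ddit3 had 22.9, 20.3, 21.2, 23.1 and 23.0 CPM in WT replicates 1 to 5 and 21.02 to 29.4 CPM with a median of 22.7 CPM in the libraries labelled cKO, where replicates 2 and 6 were high. It was at 0.13 ± 0.08 with replicate 6 and 0.07 ± 0.07 without it. Ddit3 overlaps other annotated genes on both strands, so its count is uncertain.

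Of the ATF4 and CHOP targets, Ppp1r15a, the GADD34 subunit that returns eIF2 to its active form, was the 1 gene of the 35 with every library labelled cKO below every WT library, as in 0.512% of all genes tested. It had 14.6, 14.6, 15.8, 16.1 and 15.1 CPM in WT replicates 1 to 5 and 13.2 to 14.3 CPM with a median of 13.7 CPM in the libraries labelled cKO. The gap was narrow, between 14.3 CPM in replicate 4 labelled cKO and 14.6 CPM in WT replicate 2. The log2 difference was -0.15 ± 0.06 (SE; edgeR, adjusted p = 0.476; DESeq2, adjusted p = 0.394), -0.14 ± 0.06 without replicate 6 and -0.10 in the male libraries. Asns, asparagine synthetase, was at 0.06 ± 0.08, Chac1, a glutathione-degrading enzyme, at 0.07 ± 0.12 and Trib3 at -0.06 ± 0.27. None of these 4 genes was highest in replicate 6, where Asns had 70.7 CPM against 67.4 to 92.3 CPM in the others.

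**Figure D4:**
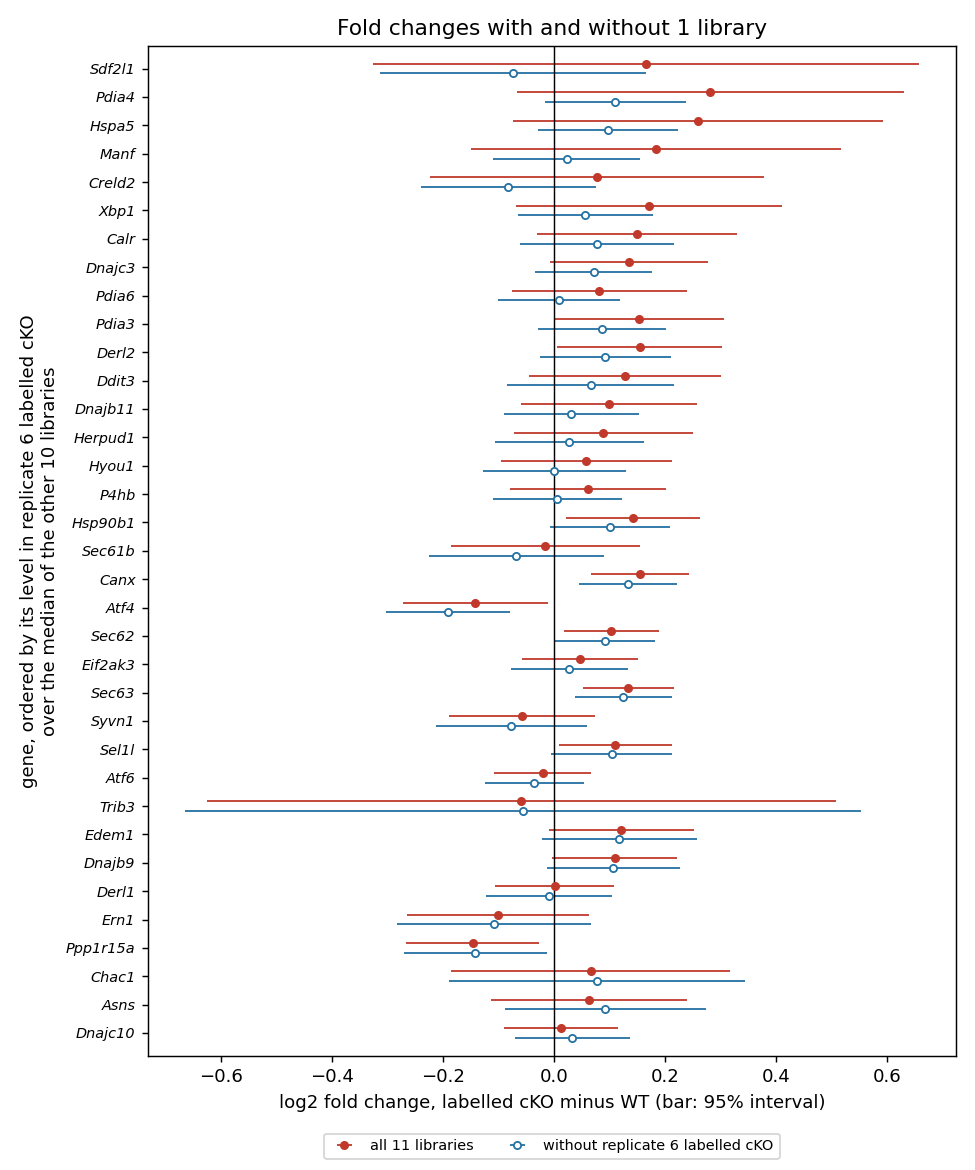
Log2 fold change, labelled cKO minus WT (x axis), of each of the 35 genes (y axis) with 95% intervals, from all 11 libraries (filled) and without replicate 6 labelled cKO (open). Genes are ordered by their level in that library over the median of the others. The upper genes, which were highest in that library, move toward or past 0 without it, a direction that follows from this order. Canx, Sec63, Sec62 and Ppp1r15a keep values close to those of all libraries.

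The order of the genes by their level in replicate 6 over the median of the other 10 libraries differed by role. Sdf2l1 was 2.12-fold, Pdia4 1.85-fold, Hspa5 1.76-fold, Manf 1.71-fold, Creld2 1.67-fold and Xbp1 1.56-fold above that median. The median of the log2 ratio was 0.59 for the 6 co-chaperones and secreted factors, 0.41 for the disulfide isomerases and 0.39 for the 3 transcription factors. It was 0.33 for the ER HSP70 and HSP90 chaperones and 0.33 for the lectin chaperones. The translocon genes had 0.13, ERAD 0.10, the sensors 0.09 and the ATF4 and CHOP targets -0.11. Genes with an exact ERSE were highest in replicate 6 in 7 of 8 cases, with a median log2 ratio of 0.43, and genes with a window but no exact match in 13 of 23 cases, with a median of 0.13. This is a description of 1 library, with no test.

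Replicate 6 had 28029910 counts, within the range of the others, and 5.06% of its counts came from mitochondrial genes, against 4.47% to 6.79% elsewhere. Its summed level of the 9 neuron markers was 12841 CPM, within the 11912 to 13302 CPM of the other 10 libraries. The 10 markers of hippocampal principal cells summed to 1334 CPM, the highest of the 11 libraries, against 1159 to 1246 CPM in the others. The 7 astrocyte markers summed to 9803 CPM, below replicate 2 labelled cKO and above the other 9 libraries, which were at 6438 to 8347 CPM. The 8 thalamic markers summed to 103 CPM, below the 133 to 140 CPM of the other 10, and the 8 choroid plexus markers to 79.4 CPM, also the lowest. Plasma cells, a cell type rich in ER chaperones, were little represented. Their 7 markers summed to 31.5 CPM in replicate 6 and 16.8 to 50.4 CPM in the others, mostly Ighm, with Mzb1 and Ighg2b at 0 in some libraries. The part of the principal cell, astrocyte, thalamic and choroid plexus values in the replicate 6 result was not tested.

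Other genes of the pathway, in 7 lists of 189 genes, were tested in 186 cases. None passed edgeR's test, 6 were higher and 5 lower at an unadjusted p under 0.05, beside 3.84% and 5.35% of all genes, and their median log2 fold change was 0.03. Among 32 translocon, signal peptidase and glycosylation genes 2 were higher at that p. Ssr1, a subunit of the translocon-associated complex, was 1 of them. It had 122.4 to 133 CPM in the libraries labelled cKO and 116.5 to 122.3 CPM in WT, groups that did not overlap by a narrow margin (0.10 ± 0.04, log2 ± SE; edgeR, adjusted p = 0.476). Among the 186 genes only Ssr1 separated upward in this way, a pattern found in 0.404% of all genes. In the downward direction 1 gene separated, on the ER to Golgi list, a pattern found in 0.512% of all genes. Of 26 genes of ER to Golgi transport 3 were higher and 2 lower at an unadjusted p under 0.05. Among them were Sec23a, a COPII coat subunit, at 0.13 ± 0.04, and Preb, the exchange factor that starts that coat, at -0.10 ± 0.04. Among 31 ATF4 target and amino acid genes 0 were higher and 1 was lower, Ddit4, an inhibitor of mTOR signalling, at -0.23 ± 0.085 (edgeR, adjusted p = 0.441). Of 29 further ERAD genes 1 was lower, Aup1, at -0.12 ± 0.04, and of 38 further folding genes 1 was higher, Txndc12, at 0.14 ± 0.06, and 1 lower, P3h1, at -0.23 ± 0.10. The list of eIF2 kinases and eIF2B subunits and that of further sensors and bZIP factors had 0 in either direction. The genes of smallest p there were Eif2ak2, the kinase PKR, at 0.24, Eif2ak1 at 0.03 and Eif2b4 at -0.03 in the former list, and Creb3l2 at 0.14, Tmbim6 at 0.09 and Bax at -0.10 in the latter (log2). The remaining genes of smallest p in each list were Slc7a11 at 0.15, Psat1 at 0.09, Ero1l at 0.11, Ube2j1 at 0.09, Rnf5 at 0.07, Ssr3 at 0.12, Magt1 at 0.13 and Sec24a at -0.20.

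In replicate 6 the highest level of the 11 libraries was reached by 10 of 32 translocon and glycosylation genes (31.2%), 11 of 38 further folding genes (28.9%), 9 of 31 ATF4 target genes (29%), 6 of 29 further ERAD genes (20.7%), 3 of 26 transport genes (11.5%), 2 of 20 further sensors and bZIP factors (10%) and 1 of 10 eIF2 kinase and eIF2B genes (10%), beside the 12.3% of all genes. A group of 4 stress transcription regulators on the ATF4 list, chosen after their values were seen, had the widest gaps. Atf5 had 50.5 CPM in replicate 6 and 18.5 to 28.6 CPM in the others, Cebpb 18.4 CPM against 6.20 to 14.9 CPM, Nupr1 10.8 CPM against 4.53 to 8.27 CPM, and Atf3 2.43 CPM against 0.419 to 2.02 CPM.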

How the data were processed

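The authors deposited raw counts for each Ensembl gene, in whole numbers and without normalization. Per the submitters' processing notes, bcl2fastq 2.17.1.14 and build mm10 were used, and per the labels' protocols the kit made a dUTP strand-marking library. The aligner, counter and annotation: not given in the sources used here. Symbols, coordinates and exon lengths are from GENCODE M21 (mm10), and 30566 of 30681 genes matched. Promoter sequences are from RefSeq (GRCm38.p6).

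Genes were filtered by filterByExpr, which left 16587, scaled by TMM and tested by edgeR's 2-sided quasi-likelihood test (robust) with Benjamini-Hochberg adjustment at 0.05. CPM were computed on TMM-scaled totals. Each SE was the log2 fold change divided by the root of F, with 95% intervals. Centred log2 CPM used a prior count of 2. No pair of replicates agreed within sampling noise (chi-square over degrees of freedom at least 5.70). The tests were checked on simulated counts. R 4.3.3, edgeR 4.0.16, limma 3.58.1 and DESeq2 1.42.0 were used.

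The 35 genes and the lists were chosen with earlier results of these data known. Library values, in part only as ranges, are given for genes with an unadjusted p under 0.05 and for Hspa5, Xbp1, Atf4 and Ddit3. Of each other list up to 3 genes of smallest p are named. Motif searches and the description of replicate 6 were chosen after the data were seen.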

Additional observations from a re-analysis of the deposited data

Results flagged for a closer look

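A library was marked when its gap to the nearest other library of its group exceeded Dixon's 95% critical value for the group's size. The nominal rate of such marks is about 1 in 20 groups, if values are normal and groups independent. Here 12 of 70 groups were marked, and the share over all genes was not counted. Of the 12, 8 were replicate 6 labelled cKO, high in each: Hspa5 (487 CPM), Pdia4 (70.8 CPM), Pdia6 (149 CPM), Dnajc3 (87.0 CPM), Sdf2l1 (19.7 CPM), Creld2 (21.5 CPM), Manf (69.3 CPM) and Xbp1 (126 CPM). These 8 come from 1 library and are not 8 separate events. The gap was 0.63 of the range for Pdia6, close to the critical value, and 0.67 to 0.79 for the other 7.

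The other marks were scattered. Sel1l was 160 CPM in replicate 2 labelled cKO against 184 to 191 CPM in the other 5 of its group. Chac1 was 3.27 CPM in replicate 1 labelled cKO against 4.28 to 4.86 CPM. WT replicate 2 was high for Dnajc3 at 70.5 CPM against 62.6 to 63.9 CPM, and WT replicate 4 low for Derl2 at 22.1 CPM against 24.3 to 25.1 CPM.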

How the results depend on the processing

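Directions of single genes mostly held, and counts moved. Genes called at an adjusted p under 0.05 numbered 0 in edgeR, 58 in DESeq2 (1524 at an unadjusted p under 0.05 in edgeR), 3 without the filter, 3 in DESeq2 with a sex term, 2 in DESeq2 on the male libraries, 48 in DESeq2 without replicate 6 labelled cKO and 1 in edgeR with a sex term without it. Of the 35 genes, DESeq2 called 2, and 1 without replicate 6. The 7 higher and 2 lower genes at an unadjusted p under 0.05 (3.84% and 5.35% of all genes) became 3 and 1 with a replicate block (3.27% and 4.76%), 3 and 0 with a sex term in edgeR (2.59% and 4.36%) and in DESeq2 (1.73% and 2.29%), 2 and 0 in edgeR (2% and 3.58%) and 3 and 0 in DESeq2 (1.38% and 1.89%) on the male libraries, and 3 and 1 with a sex term without replicate 6 (2.29% and 3.87%). The shares over all genes were thus lower at these settings too. Without the filter 1 was lower (3.86% of all genes) and 0 lay below all WT libraries. On the male libraries, of which 2 are WT, 4 lay above all WT libraries. Fewer libraries make such separation easier, and its share over all genes was not counted at these settings. Same-numbered libraries did not deviate together (correlations from -0.32 to 0.21, and 1 of 5 was closest to its own number), so the block pairs numbers only.

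Leaving out 1 library at a time gave 0 to 14 genes called (14 without WT replicate 5, none among the 35). Of the 35, 3 to 9 were higher and 1 to 2 lower at an unadjusted p under 0.05. The shares over all genes also moved, from 2.51% to 5.41% higher and from 4.18% to 7.15% lower. Of the 35, 3 were higher without replicate 6 labelled cKO (3.54% of all genes) or WT replicate 3 (2.51%), and 4 without WT replicate 4 (2.54%). From 2 to 4 lay above all WT libraries (4 without replicate 2 labelled cKO), and that share over all genes was not counted. The log2 fold change then ran from -0.083 to 0.15 for Creld2, -0.039 to 0.026 for Derl1, -0.011 to 0.037 for Dnajc10, -0.055 to 0.0012 for Eif2b4, -0.074 to 0.25 for Sdf2l1, -0.067 to 0.029 for Sec61b and -0.17 to 0.11 for Trib3. The sign of the log2 fold change of Derl1 also turned with upper-quartile scaling (-0.00229), a stricter filter (-0.000490), limma-voom (-0.00533), the replicate block (-0.00733) and DESeq2 without replicate 6 (-0.00329), and that of Trib3 with limma-voom (0.037). It turned for Sdf2l1 with the block (-0.063) and DESeq2 without replicate 6 (-0.069), and for Creld2 with the block (-0.085), DESeq2 without replicate 6 (-0.076) and the sex term without it (-0.085). Eif2b4 turned with a sex term (0.029), on male libraries (0.031), in DESeq2 with a sex term (0.032) and on males (0.034), and with the sex term without replicate 6 (0.016). The cause was not tested. The settings with a sex term in DESeq2, DESeq2 on males and both without replicate 6 were chosen after seeing the data.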
